A study of Mus musculus with 3 samples.

Results

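Adhesion molecules of the immunoglobulin type and 2 other leukocyte adhesion receptors were followed in mouse macrophages stimulated in 3 ways. The genes are Icam1, Vcam1, and Pecam1, which the study took from these same arrays as candidate receptors, and 5 relatives, Icam2, F11r, Alcam, Cd44, and Selplg. A probe belonged to a member if the array design gave it that gene name, which was the case for 13 probes, and the 8 genes were 8 of the 34821 gene names on the array. Since the candidates were taken from these arrays, their rise in the cotreated cells is a description of how they were picked and not independent evidence, whereas the relatives were not picked for it by the study. All 8 genes were chosen here with earlier results of these data known, so that the relatives are not an independent set either. As each condition had 1 array, the values carry no replicate check and are given without a test or a p-value.

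BMDMs, macrophages grown from bone marrow of C57BL/6J mice in M-CSF, were stimulated for 20 h. The CpG array held cells given CpG, a DNA ligand of TLR9, at 0.063 μg/ml. The IFN-γ + αIL-10R array, IFN-g+IL-10RB in the sample labels, held cells given IFN-γ at 100 U/ml together with αIL-10R, an antibody that blocks the IL-10 receptor. The Triple array held cells given all of these agents at these doses. Resting cells and cells given IFN-γ without the blocker were not analysed here, so that every value is relative to another stimulated culture. Processed signal is the brightness of a probe after background subtraction, on a linear scale without scaling between arrays, and log2 differences were computed after each array had been shifted by its 75th percentile. The scanner software gives an error for each signal, with a median of 10.0% over spots brighter than 1000, which amounts to 0.20 on a log2 difference between 2 single spots. Replicate spots of 1 probe gave a smaller SD of 0.13 for the same difference. Neither error includes differences between cultures.

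Leukocytes hold on to other cells through pairs of surface proteins. ICAM-1 and ICAM-2 are bound by the integrin LFA-1, VCAM-1 is bound by VLA-4, and PECAM-1 (CD31) binds itself on the neighbouring cell. JAM-A, the product of F11r, is a junction protein that leukocytes also carry, ALCAM binds CD6 and itself, CD44 is the main receptor for the matrix sugar hyaluronan, and PSGL-1, the product of Selplg, is the ligand of the selectins once enzymes have added sugars and sulfate to it. Inflammatory signals through NF-κB are known to raise ICAM-1 and VCAM-1 in many cells, and IFN-γ is known to raise ICAM-1.

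The members split into genes brightest in Triple and genes brightest on 1 of the other 2 arrays. Icam1, Vcam1, Pecam1, and Alcam stood more than 2-fold above both other arrays, and F11r stood more than 2-fold above CpG only. Cd44 changed least, and Icam2 and Selplg were highest with IFN-γ + αIL-10R. Among all 33597 genes, 2.06% exceeded both other arrays in Triple by more than 2-fold, and 4 of the 8 members did, 3 candidates and 1 relative. Shares of all genes include many that were not detected. Only 15891 of them were well above background on each array, as all 8 members were. No member was more than 2-fold lower than in both, compared with 2.74% of all genes. On signals without regard to a threshold, Triple was above both other arrays for 5 members, between them for 1, and below both for 2, compared with 31.9%, 27.6%, and 40.5% of the 15891 genes detected well above background on each array.

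**Figure D1:**
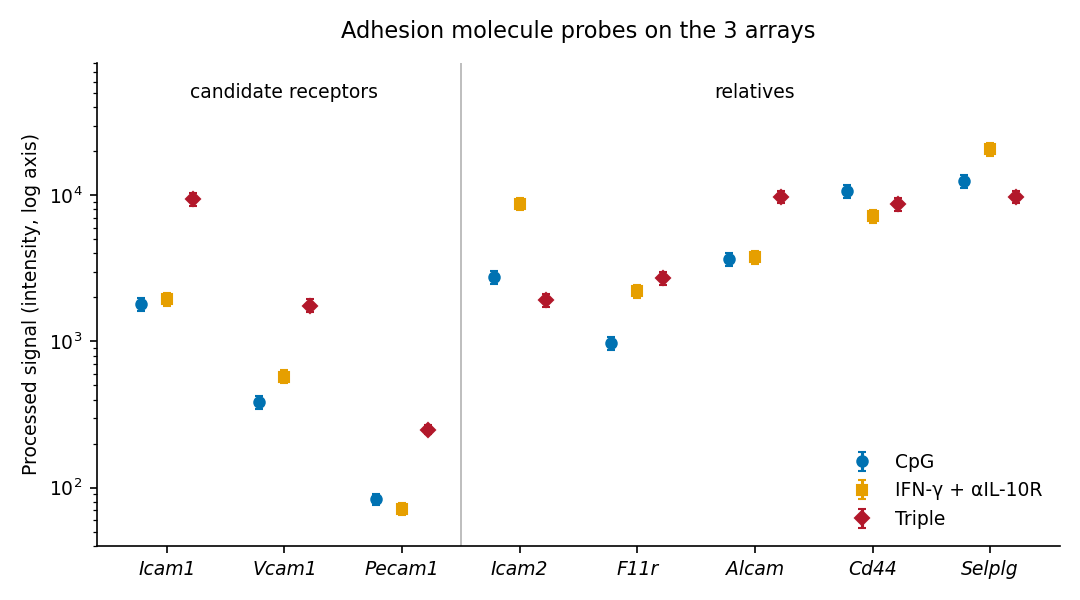
Processed signal (intensity, log axis) of the main probe of each member on the CpG, IFN-γ + αIL-10R, and Triple arrays, 1 array per condition, with bars showing the scanner software's error. Triple was the highest array for Icam1, Vcam1, Pecam1, F11r, and Alcam, and IFN-γ + αIL-10R was the highest for Icam2 and Selplg.

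Icam1 rested on 1 probe (NM_010493, chromosome 9 from 20832290 to 20832349 on mm9), with a signal of 9420 in Triple against 1803 with CpG and 1955 with IFN-γ + αIL-10R. CpG and IFN-γ + αIL-10R were indistinguishable within the scanner error, with a log2 difference of −0.14 ± 0.20, and only Triple was high. The rise was 5.43-fold over CpG and 4.92-fold over IFN-γ + αIL-10R, which placed Icam1 at rank 171 and rank 205 of the 15891 genes. Vcam1 had 2 probes, 15737 bases apart on chromosome 3, and both were well above background on all arrays. The brighter probe, at 115813216 to 115813275, read 383, 575, and 1759 in the order CpG, IFN-γ + αIL-10R, and Triple. The dimmer probe, at 115828953 to 115829012, read 53.6, 43.5, and 121 in the same order. Both probes were highest in Triple and passed 2-fold in both comparisons, but the sizes differed, with log2 differences over CpG of 2.26 ± 0.20 on the brighter and 1.23 ± 0.28 on the dimmer. Over IFN-γ + αIL-10R they were closer, 3.13-fold and 2.83-fold. The probes disagreed on which of the other 2 arrays was lower, since CpG minus IFN-γ + αIL-10R was −0.61 ± 0.21 on the brighter and 0.27 ± 0.35 on the dimmer.

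Pecam1 was dim, and its single probe (NM_001032378, chromosome 11 from 106540864 to 106540923) was spotted at 2 places. The first spot read 96.1, 75.9, and 266 in the order CpG, IFN-γ + αIL-10R, and Triple, and the other spot read 71.5, 67.8, and 233. Triple was highest at both places by more than the spots differed within any array, and the log2 differences over CpG were 1.52 and 1.76, and over IFN-γ + αIL-10R 1.84 and 1.81. CpG and IFN-γ + αIL-10R differed by 0.18 ± 0.18 on the mean of both spots. Being dim, Pecam1 was the member most affected by the background method: with normexp correction in place of the scanner's own, its log2 differences were 1.11 against CpG and 1.19 against IFN-γ + αIL-10R, still past 2-fold.

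Alcam was the relative whose pattern was most like the candidates. Its probe (NM_009655, chromosome 16) spanned 1878 bases of mm9 from 52268908 to 52270785, so that its 60 bases are not contiguous in the genome. Its signal was 9770 in Triple, 3641 with CpG, and 3751 with IFN-γ + αIL-10R. As for Icam1, CpG and IFN-γ + αIL-10R were indistinguishable within the scanner error, with a log2 difference of −0.068 ± 0.20, and Triple was high. The rise was 2.79-fold over CpG and 2.66-fold over IFN-γ + αIL-10R. Alcam was the only relative more than 2-fold higher in Triple than with IFN-γ + αIL-10R. Over CpG it was 1 of 2 relatives more than 2-fold higher. F11r, the other one (NM_172647, chromosome 1 from 173393848 to 173393907), read 972, 2205, and 2717 in the order CpG, IFN-γ + αIL-10R, and Triple. CpG was the low array here, 2.31-fold under IFN-γ + αIL-10R and 2.90-fold under Triple, whereas Triple exceeded IFN-γ + αIL-10R by a log2 difference of 0.33 ± 0.20, which is within 2 scanner errors.

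Sequences of 4 probes are shown, since the values of Icam1, Pecam1, and Alcam come from 1 probe each and the rise of Vcam1 was seen on both of its probes, of which the dimmer is given. They are the 60-base probes of the array design, 5′ to 3′, in the sense of the transcript and without marked bases.
Icam1: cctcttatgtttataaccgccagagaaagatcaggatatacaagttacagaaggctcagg
Vcam1, dimmer probe: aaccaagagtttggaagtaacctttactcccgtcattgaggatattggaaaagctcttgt
Pecam1: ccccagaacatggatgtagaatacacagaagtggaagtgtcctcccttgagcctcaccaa
Alcam: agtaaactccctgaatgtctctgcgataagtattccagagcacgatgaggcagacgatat

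Icam2, the other ICAM of the list, differed from Icam1 in direction. Its probe (NM_010494, chromosome 11 from 106238971 to 106239030) read 8753 with IFN-γ + αIL-10R, 2748 with CpG, and 1911 in Triple. IFN-γ + αIL-10R was the high array, and Triple was 4.48-fold and CpG 3.24-fold under it. Triple also lay under CpG, by 0.47 ± 0.20 on the log2 scale, less than 2-fold. Within the ICAM pair the log2 difference of Icam1 exceeded that of Icam2 by 2.91 ± 0.29 in Triple over CpG and by 4.46 ± 0.29 in Triple over IFN-γ + αIL-10R.

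Selplg followed the order of Icam2 with smaller steps. Its brighter probe (chromosome 5, of which the annotation places 28 bases, from 114267807 to 114267834) read 20586 with IFN-γ + αIL-10R, 12456 with CpG, and 9785 in Triple. The other probe, at 114269206 to 114269265, read 6454, 4012, and 3600 in the same order. IFN-γ + αIL-10R was highest and Triple lowest on both, and Triple was 2.06-fold under IFN-γ + αIL-10R on the brighter and 1.75-fold under it on the other, so that the 2-fold call rested on the choice of probe. It also rested on the scaling, as the log2 difference of the brighter probe was −0.93 in the authors' own table against −1.04 here. The difference between Triple and CpG, −0.29 ± 0.20 and −0.10 ± 0.20 on the 2 probes, was within 2 scanner errors on both.

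Cd44 had 4 probes on chromosome 2. The brightest, at 102651398 to 102651457, read 10635 with CpG, 8708 in Triple, and 7217 with IFN-γ + αIL-10R. The next, at 102654278 to 102654337, read 4916, 4591, and 3485 in the same order. CpG was highest and IFN-γ + αIL-10R lowest on both, by 0.53 ± 0.20 and 0.47 ± 0.20 on the log2 scale, and no pair of arrays differed 2-fold. Of the 2 probes lying 21247 and 26573 bases from the brightest, towards the 5′ side of the gene, one was just above background with 48.2, 36.7, and 30.4, and the other was not well above background on any array. Cd44 was thus the member with the smallest range over the 3 arrays, 1.45-fold, against 5.43-fold for Icam1.

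**Figure D2:**
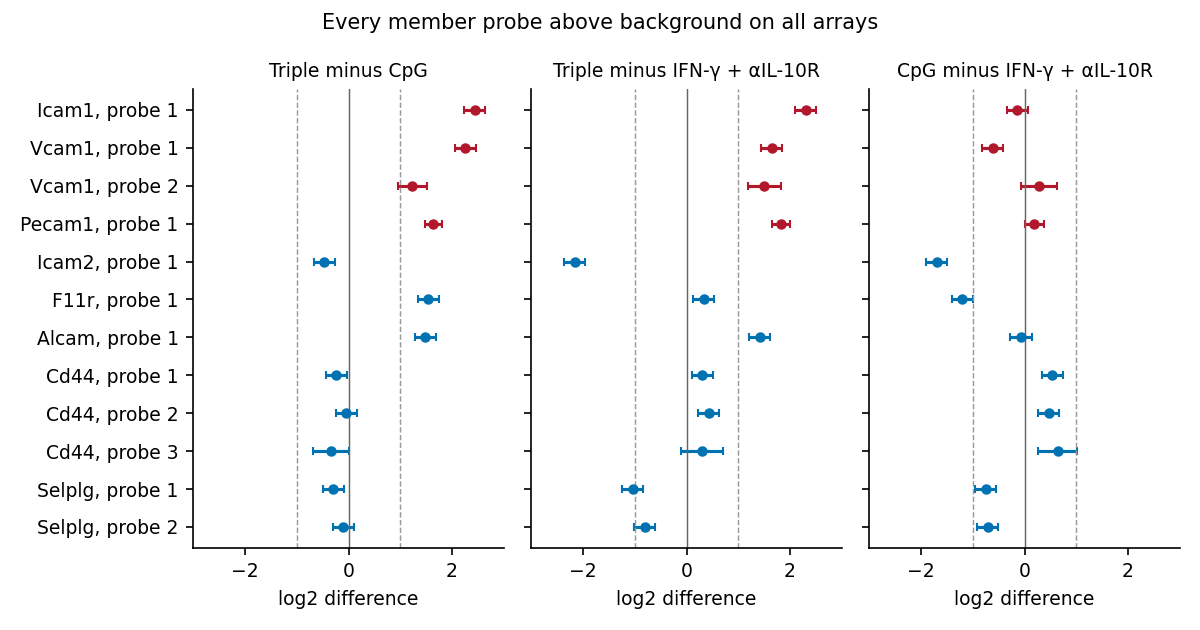
Log2 differences between pairs of arrays for each of the 12 member probes well above background on all arrays, with bars of the scanner error and dashed lines at 2-fold. Candidates are red and relatives blue. Both Vcam1 probes lay past 2-fold in the 2 Triple comparisons and on opposite sides of 0 for CpG minus IFN-γ + αIL-10R, and the Selplg and Cd44 probes kept their order of arrays.

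Counted over the members, 5 of 8 were more than 2-fold higher in Triple than with CpG, a call that 4.08% of all genes received, and 0 were more than 2-fold lower (4.55% of all genes). Against IFN-γ + αIL-10R, 4 were higher (3.53% of all genes) and 2 were lower (5.01% of all genes). Between CpG and IFN-γ + αIL-10R, 0 were higher with CpG (2.75% of all genes) and 2, Icam2 and F11r, were lower (3.18% of all genes). The median log2 difference of the members was 1.51 in Triple over CpG, 0.87 against IFN-γ + αIL-10R, and −0.38 between CpG and IFN-γ + αIL-10R. Over the 15891 genes it was −0.050, −0.045, and −0.0016 in the same order. Since 3 of the 8 were picked for their rise in Triple, the relatives alone give 2 of 5 higher over CpG, and 1 of 5 higher and 2 of 5 lower over IFN-γ + αIL-10R. Both of the latter comparisons share the Triple array.

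The candidates were then set against the relatives by the difference of their log2 differences. Since the candidates were picked for their rise in Triple on these arrays, an excess over the relatives is a description and not evidence. The scanner error used as a yardstick leaves out differences between cultures. Icam1 exceeded all 5 relatives by more than 2 scanner errors in both Triple comparisons, with Alcam and F11r the nearest, at 0.96 ± 0.29 and 0.90 ± 0.29 over CpG. Vcam1 exceeded 5 of 5 over CpG and 4 of 5 over IFN-γ + αIL-10R, where it stood only 0.23 ± 0.29 above Alcam. Pecam1 exceeded 3 of 5 over CpG, being 0.10 ± 0.26 above F11r and 0.16 ± 0.26 above Alcam, and 4 of 5 over IFN-γ + αIL-10R, where it was 0.41 ± 0.27 above Alcam. The rise of Alcam was therefore not distinguishable by the scanner error from that of Pecam1 in either comparison. With the dimmer Vcam1 probe, 1.23 ± 0.28 over CpG, Vcam1 lay below F11r (1.54 ± 0.20) and Alcam (1.48 ± 0.20) in that comparison, with overlapping scanner errors.

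**Figure D3:**
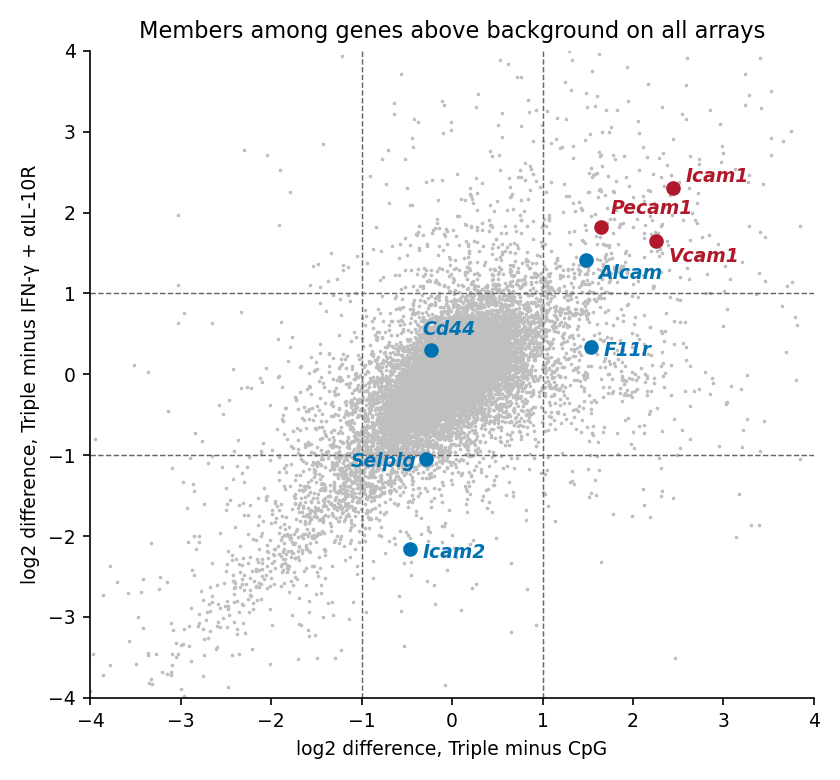
Log2 difference of Triple minus CpG (x axis) and of Triple minus IFN-γ + αIL-10R (y axis) for the 15891 genes detected on each array (grey, of which 101 lie outside the axes), with the candidates in red, the relatives in blue, and dashed lines at 2-fold. Alcam lies beside the 3 candidates in the upper right, and Icam2 and Selplg lie below the lower 2-fold line, at −2.16 and −1.04 on the y axis.

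Genes with the pattern most like each candidate were found by the Euclidean distance of the centred log2 signals over the 3 arrays, among 10543 named genes, as a description only. Among those closest to Icam1 were Tmeff1, Lacc1, Adck3, and Slamf7, a receptor of the SLAM family that read 3965, 4708, and 19338 in the order CpG, IFN-γ + αIL-10R, and Triple. Closest to Vcam1 were Inpp5b, Clvs1, Tnfrsf14, Pnpla1, and Ripk2, a kinase downstream of NOD receptors, which read 136, 185, and 647. Closest to Pecam1 were Sowaha, Fabp2, Rbpms, Slc1a4, a carrier of neutral amino acids that read 6387, 5731, and 21249, and Osgin2. Among the members, Alcam was near Pecam1, with 18 genes closer, Vcam1 was near Icam1, with 35 genes closer, and Selplg was near Icam2, with 288 genes closer.

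Of the members, Icam1, F11r, Alcam, and Cd44 were found in a RefSeq promoter table on GRCm38.p6, which gives 250 bases before and 50 bases after the annotated start, and Vcam1, Pecam1, Icam2, and Selplg were not. The table held 32817 such promoters of 300 bases, and both strands were searched for 6 motifs. These were the NF-κB consensus by its usual letters, a κB-like GGANNTTCC, which can overlap it, the GAS site TTCNNNGAA and the same site with 1 more base of spacing, the core of the IRF element ISRE, and the AP-1 site TGANTCA. The Icam1 promoter is shown because Icam1 had the largest rise of the members and 2 matches, in capitals: the κB-like GGAAATTCC from 153 to 145 bases before the start, and the GAS letters TTCCCGGAA from 42 to 34 bases before it. Such matches were held by 4.26% and 8.29% of all promoters.
Icam1, chr9:21015690-21015989, plus strand: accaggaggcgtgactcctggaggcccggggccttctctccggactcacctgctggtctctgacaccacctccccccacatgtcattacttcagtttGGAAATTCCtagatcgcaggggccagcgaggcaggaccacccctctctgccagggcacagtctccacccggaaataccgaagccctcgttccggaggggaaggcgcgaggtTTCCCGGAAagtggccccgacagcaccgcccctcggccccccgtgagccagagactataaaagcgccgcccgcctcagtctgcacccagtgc

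The F11r promoter held 1 match, the AP-1 letters TGAGTCA from 109 to 103 bases before the start (7.81% of all promoters hold one), and the Cd44 promoter 1, the longer GAS spacing TTCCTGGGAA from 211 to 202 bases before it (6.94%). The Alcam promoter, whose gene rose in Triple as well, is shown for contrast, as none of the 6 motifs was found in its letters.
Alcam, chr16:52453032-52453331, minus strand: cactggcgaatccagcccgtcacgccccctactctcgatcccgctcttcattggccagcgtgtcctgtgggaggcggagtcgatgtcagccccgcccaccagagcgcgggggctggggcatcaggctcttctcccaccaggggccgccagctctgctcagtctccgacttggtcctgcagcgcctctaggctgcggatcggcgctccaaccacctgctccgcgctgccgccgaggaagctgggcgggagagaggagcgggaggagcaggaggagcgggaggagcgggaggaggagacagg
A match is a description of letters, and its absence from this window says nothing about the factors.

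Integrins that bind the members were followed as a list of 9 subunits. Compared with CpG, 2 were higher in Triple and 1 was lower (4.08% and 4.55% of all genes). Compared with IFN-γ + αIL-10R, 1 was higher and 1 was lower (3.53% and 5.01% of all genes). Itgal, the α subunit of LFA-1 and so a partner of both ICAMs, was the one higher in both, with a signal of 27495 in Triple, 9044 with CpG, and 3532 with IFN-γ + αIL-10R. That was 3.16-fold over CpG and 7.95-fold over IFN-γ + αIL-10R, and a second bright probe gave log2 differences of 1.59 and 3.09, whereas a dim probe gave 0.70 and 1.04. Its partner Itgb2, the common β subunit, was bright and even, at 33135, 28268, and 34177. Itgam and Itgax are the other α subunits that pair with it. On the brightest probe of each, the log2 differences of Itgam (−0.67 and 0.66) and Itgax (−0.38 and 0.24) stayed within 2-fold. The Itgam probes disagreed. Another bright Itgam probe read 8809, 3458, and 7577 in the same order, with log2 differences of −0.16 and 1.16. The latter, Triple against IFN-γ + αIL-10R, was past 2-fold. A dimmer Itgam probe gave −0.20 and 0.59.

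For VLA-4, the receptor of VCAM-1, Itga4 read 5728, 10968, and 7902 in the order CpG, IFN-γ + αIL-10R, and Triple, and Itgb1 read 6752, 5249, and 8051. Neither subunit passed 2-fold in a Triple comparison. Itgb7, which also pairs with α4, was highest with IFN-γ + αIL-10R, with 4531, 27578, and 10725, so that Triple was 2.46-fold over CpG and 2.52-fold under IFN-γ + αIL-10R. For the αv integrin, which binds PECAM-1 in some settings, Itgav read 399, 922, and 451, and Itgb3 read 303 and 51.1 and was not well above background in Triple, at least 11.1-fold under CpG. A second, dim Itgb3 probe disagreed, with 35.3 for CpG and 38.8 for Triple.

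**Figure D4:**
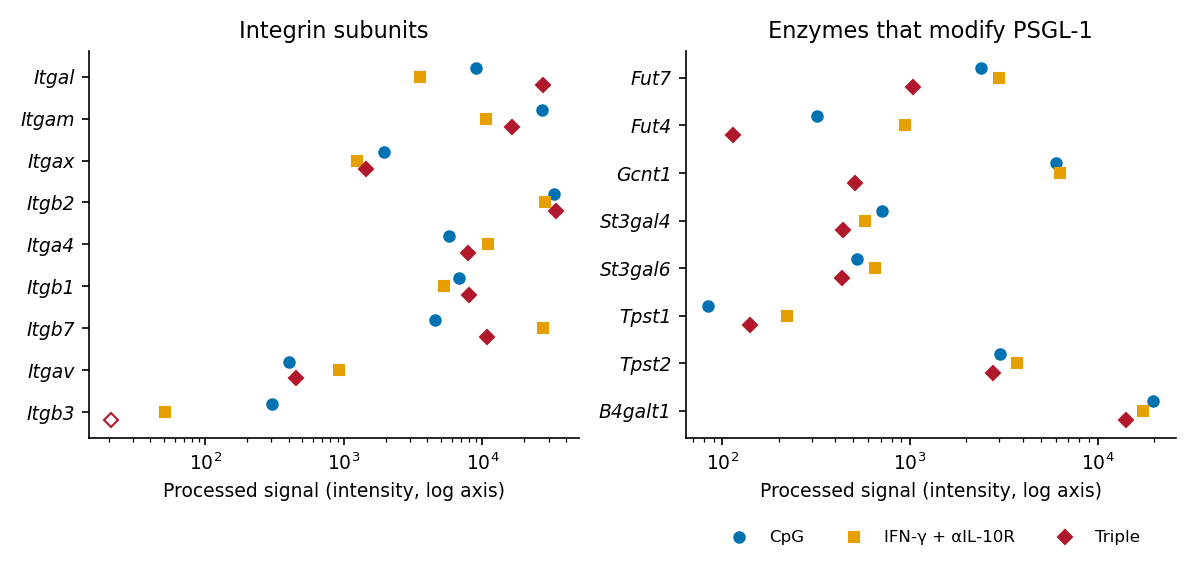
Processed signal (intensity, log axis) of 9 integrin subunits and of 8 enzymes that modify PSGL-1 on the 3 arrays, 1 array per condition, with an open symbol where the signal was not well above background. Itgal was highest in Triple, and Fut7, Fut4, and Gcnt1 were lowest in Triple.

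PSGL-1 binds selectins only after it has been modified, and 8 enzymes of that step were all well above background on every array. In Triple, Fut7, Fut4, and Gcnt1 were more than 2-fold lower than with CpG and also than with IFN-γ + αIL-10R, which is 3 of 8 in each comparison (4.55% and 5.01% of all genes were lower), and 0 were higher in either. Gcnt1, which starts the branched sugar core, read 6008, 6276, and 512, so that Triple was 11.3-fold under CpG and its log2 difference from IFN-γ + αIL-10R was −3.59. Its other probes gave log2 differences of −2.94 and −2.79 over CpG. Fut7, a fucosyltransferase of the selectin ligand, read 2407, 2973, and 1039, and Fut4, another fucosyltransferase, read 320, 938, and 114. Triple was the lowest array for all 3, and the median log2 difference over the 8 enzymes was −0.52 against CpG and −0.60 against IFN-γ + αIL-10R, where the 15891 genes had −0.050 and −0.045.

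Of the selectins of endothelium and platelets, Sele and Selp were not well above background on any array. Cd34, a sialomucin that can serve as a selectin ligand, read 85.4 and 634 and was not well above background in Triple, at least 3.03-fold under CpG and at least 22.9-fold under IFN-γ + αIL-10R. A second Cd34 probe was not well above background on any array. Spn, the sialomucin CD43, read 10966, 2685, and 9090 in the order CpG, IFN-γ + αIL-10R, and Triple, 3.46-fold higher in Triple than with IFN-γ + αIL-10R and within 2-fold of CpG. Of the 8 genes on this list of selectins and selectin ligands, 1 was higher and 1, Cd34, was lower in Triple than with CpG (4.08% and 4.55% of all genes). Compared with IFN-γ + αIL-10R, 2 were higher and 1, again Cd34, was lower (3.53% and 5.01% of all genes).

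Other adhesion molecules of the immunoglobulin type were read from lists that hold part of each family. The remaining ICAM-like genes, Icam4, Icam5, and Madcam1, gave 0 calls in either Triple comparison. Of all genes, 4.08% were higher and 4.55% lower over CpG, and 3.53% higher and 5.01% lower over IFN-γ + αIL-10R. These genes were dim, with Icam5 the brightest at 68.0, 59.4, and 98.3 in the order CpG, IFN-γ + αIL-10R, and Triple. Madcam1 was not well above background with IFN-γ + αIL-10R. Of 11 measured JAM and nectin genes, 8 were not well above background on either array of the comparison over CpG. There 1 was higher and 0 were lower (4.08% and 4.55% of all genes), and 1 was higher and 2 were lower over IFN-γ + αIL-10R (3.53% and 5.01% of all genes). The higher one was Pvr in both, the poliovirus receptor and a ligand of CD226. Pvr read 805, 497, and 1628, which was 2.10-fold over CpG and 3.34-fold over IFN-γ + αIL-10R. Of 15 further measured genes, 2 were higher and 2 lower over CpG, and 1 was higher and 0 lower over IFN-γ + αIL-10R, against the same shares of all genes. Cd200, which restrains myeloid cells through its receptor, was the one past the threshold in both, with 2955 in Triple, 314 with CpG, and 45.8 with IFN-γ + αIL-10R, 9.77-fold and 65.9-fold.

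Markers of macrophages and of other cells that carry these molecules were read on the same arrays. All 7 measured macrophage markers, Csf1r and Cd68 among them, were well above background on every array, with a summed signal between 522271 and 610772. Single markers were less even. In Triple, 1 was higher and 0 lower than with CpG (4.08% and 4.55% of all genes). Compared with IFN-γ + αIL-10R, 1 was higher and 1 lower (3.53% and 5.01% of all genes). Between CpG and IFN-γ + αIL-10R, 2 were higher with CpG and 2 lower (2.75% and 3.18% of all genes). Of 8 measured endothelial markers, 1 was well above background in Triple, 2 with IFN-γ + αIL-10R, and 3 with CpG, the summed signal was between 5560 and 5883, and Tek, Tie1, Esam, Emcn, and Cldn5 were not well above background on any array. Kdr made up nearly all of that sum, and its probes disagreed: the brighter was even, at 5344, 5725, and 5706, while the other read 637, 595, and 4432, with log2 differences of 2.85 and 2.93 in the 2 Triple comparisons. Of 5 measured stromal markers, 3 were well above background in Triple and with CpG and 2 with IFN-γ + αIL-10R, with sums of 488, 544, and 332 in that order, and Pdgfra and Pdgfrb were not on any array. The brightest stromal marker on each array read 319, 317, and 216 in the same order. Of 4 platelet markers, 2 were well above background on each array, with the sum between 11072 in Triple and 47398 with CpG, almost all of it Pf4, and Itga2b and Gp9 were not. Among 6 neutrophil markers, 3 or 4 were well above background on each array, with sums between 3786 and 9409, Ly6g highest with IFN-γ + αIL-10R and S100a8 highest in Triple, and Mpo and Ngp were not above background. Of 7 T cell markers, 3 (Cd3e, Lck, and Cd4) were well above background on each array, and Cd3g, Cd3d, Cd2, and Cd8a were not. The sums were between 2630 and 3006, and the brightest T cell marker read between 1646 and 1943. Of 5 B cell markers, 2 were on each array, with sums between 184 in Triple and 885 with CpG, and Ms4a1 and Pax5 were not. The brightest B cell marker read 108 in Triple and 801 with CpG. The part of such cells in the values of the members was not tested, and in RNA from whole cultures fewer cells carrying a transcript and less RNA per cell cannot be told apart.

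As a check of the labels, 4 of 4 known targets of IFN-γ were more than 2-fold lower with CpG than with IFN-γ + αIL-10R, with Irf1 at 9196 against 132675 and at 123964 in Triple. Of 4 known targets of TLR signalling, 4 were higher in Triple than on either other array. Between CpG and IFN-γ + αIL-10R, 2 were higher with CpG and 1 was lower. Il6 read 319 with CpG and was not well above background with IFN-γ + αIL-10R. No spot was saturated, between 44.4% and 46.0% of the spots of each array were well above background, and the 3 arrays were on 1 slide.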

How the data were processed

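RNA of 3 BMDM cultures was labelled in 1 colour and hybridized to Agilent mouse arrays, 1 array per condition. For each array the authors deposited scanner files from Agilent Feature Extraction 10.10.1.1. Their processed signal is an intensity after background subtraction by the software, and each has a scanner error. A deposited table of log2 values held, per column, the log2 of these signals less a constant (signals of 368, 373, and 338 in the order CpG, IFN-γ + αIL-10R, Triple), with medians of −4.26, −4.38, and −4.27. The table was used as an alternative, and its scale, centring and direction followed from this match.

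Control spots and spots marked as outliers on the spot or its local background (3.04% to 3.78% per array) were left out here, replicate spots were averaged as log2 values, and arrays were aligned at the 75th percentile of the 21229 probes detected well above background on each array, which was used because on average 44.2% of probes, under 50%, were detected. This left 33597 gene names. The probe with the highest mean stood for its gene. A gene was called higher or lower if it was well above background on the brighter array and differed more than 2-fold. A dim signal was raised to the lowest signal well above background (23.8 to 26.7), and folds against it are written as at least a value. The number of arrays limits the precision, and conditions could not be tested. The accession of all 8 members matched the same symbol in a RefSeq table of GRCm38.p6. Probe coordinates are mm9, as in the array annotation, and no gene models of that build were used. Promoter sequences are from RefSeq on GRCm38.p6.

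The members and the lists were chosen with earlier results of these data known. Named are all members with every probe, the 5 genes nearest to each candidate, the integrin partners, and list genes past 2-fold in both Triple comparisons, up to 4 a list in each direction. Icam4, Icam5, Madcam1, Sele, Selp, the cell type markers, Irf1, and Il6 were named in addition, after their values were seen. As alternatives, limma 3.58.1 in R 4.3.3 was used for normexp correction with an offset of 50, and the others were other scalings, the authors' table, other choices of probe, outlier spots kept, other treatment of dim signals, thresholds of 1.5-fold and 3-fold, and values relative to Actb. Some genes that this rule names are not reported here. A planned search of protein sequences was not run. The code was tested on simulated arrays. Calculations used Python 3.11.15, numpy 2.4.6, and pandas 2.3.3.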

Additional observations from a re-analysis of the deposited data

How the results depend on the processing

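No paired analysis was possible because there was a single array for each condition. Of the 24 log2 differences of members, 13 were past 2-fold, and 12 of these stayed past it in the same direction in all 12 alternatives run for single genes, and 0 of the 13 changed sign. The exception was Selplg in Triple over IFN-γ + αIL-10R, at −1.04, which was −0.93 with the 75th percentile over all probes, −0.94 with median scaling, −0.93 in the authors' table, and −0.93 for the mean of its probes, so that 1 member was lower in place of 2 in that comparison under these settings, as with a 3-fold threshold. A 3-fold threshold left 3 members called in Triple over CpG in place of 5, and 3 higher over IFN-γ + αIL-10R in place of 4. In both of these comparisons Alcam was no longer called. Between CpG and IFN-γ + αIL-10R the 3-fold threshold left 1 in place of 2, and a 1.5-fold threshold gave 4 there, as follows from the thresholds. Under the other alternatives the counts of members in each direction were those of the main setting. The mean of both Vcam1 probes gave 1.74 in Triple over CpG and −0.17 between CpG and IFN-γ + αIL-10R. Of 288 alternative values, 15 moved by more than the technical SD of 0.13. Some settings could not move a member value. Choosing the RefSeq mRNA probe or dropping the background filter and lower limit left all member values as they were. Averaging probes left the genes with a single probe unchanged. Spike-in scaling moved the median of all genes by −0.14 for Triple against IFN-γ + αIL-10R, and by −0.10 against CpG, and the 75th percentile over all probes, median scaling and the authors' table moved it by 0.11 in the former. Signal over background limited Pecam1, the dimmer Vcam1 probe, and the 2 dim Cd44 probes. For the other changes the cause was not tested.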

Other observations

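Partners of CD44 and of the cytoskeleton under these receptors were also on the arrays. Of 10 measured genes for hyaluronan and CD44 partners, 3 were more than 2-fold lower in Triple than with CpG and 3 were lower than with IFN-γ + αIL-10R (4.55% and 5.01% of all genes), and 0 were higher in either, while Has1, Has2, and Has3, the enzymes that make hyaluronan, were not well above background on any array. Spp1 (osteopontin, a ligand of CD44 and of integrins) read 2156 in Triple, 15037 with CpG, and 6714 with IFN-γ + αIL-10R. Hmmr, a hyaluronan-binding protein of dividing cells, read 231, 936, and 1246 in the same order, and Hyal1, a hyaluronidase, read 43.3, 136, and 112. Triple was the lowest array for these last 3 genes, in contrast to the even values of Cd44 itself.

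Of 13 actin linkers, 1 was higher and 1 lower in Triple than with CpG (4.08% and 4.55% of all genes). Compared with IFN-γ + αIL-10R, 3 were higher and 0 lower (3.53% and 5.01% of all genes). Moesin (Msn), which links ICAMs, CD44, and PSGL-1 to actin, was bright and even, with log2 differences of 0.020 in Triple over CpG and 0.29 against IFN-γ + αIL-10R. Of 6 sheddases, proteases that cut such molecules from the surface, 1 was higher and 1 lower than with CpG (4.08% and 4.55% of all genes). Compared with IFN-γ + αIL-10R, 2 were higher and 1 lower (3.53% and 5.01% of all genes). Mmp14, a protease known to cut CD44, was higher in both, with signals of 1315, 79.5, and 3862 in the order CpG, IFN-γ + αIL-10R, and Triple, 3.05-fold and 49.6-fold. Msn was named after its values were seen.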
